A study of Mus musculus with 15 samples.

Results

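The nuclear-encoded respiratory chain genes were followed in mouse cerebellum, in 3 groups of 5 RNA libraries. Members were the rows of the count table with a symbol of a complex I, II, III, IV or V subunit or Cycs (Nduf followed by a, b, c, s or v and a digit, Sdha to Sdhd, Uqcr, Cox4 to Cox8, Atp5, Cycs) and a mean of at least 1 CPM (counts per mega counts of the library). Of 85 matching symbols among 24420 rows, 81 were members: 36 of complex I, 4 of complex II, 8 of complex III, Cycs, 15 of complex IV and 17 of complex V. All 81 also passed the low-count filter and were tested among 16808 genes. The 4 symbols under the minimum were Cox8c, with 1 count in all libraries together, Ndufs5, with 3 counts, Cox8b at a mean of 0.413 CPM and Cox6a2 at 0.458 CPM. The members just inside the minimum were Ndufa4l2 at 1.71 CPM and Cox7b2 at 1.89 CPM. The symbol rule also takes in Atp5s and Atp5sl, which are not classical subunits of ATP synthase (Atp5sl is also known as Dmac2, a complex I assembly gene), and it counts Ndufa4 under complex I, although that protein is now seen as a part of complex IV.

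WT mice were wild type, labelled FVB/nJ and 9 weeks old. 82Q mice carried Atxn1[82Q], an ataxin 1 allele with an expanded glutamine repeat of the kind that causes spinocerebellar ataxia type 1, and were also labelled FVB/nJ and 9 weeks old. 82Q_M120A mice carried Atxn1[82Q] together with CalphaLoxM120A, an altered allele of the protein kinase A catalytic subunit, and were labelled Mix c57Bl/6J:FVB/nJ and 8 weeks old. The kinase allele, the strain and the age cannot be told apart in either comparison with 82Q_M120A, since all 3 differ together. The series design calls the Atxn1 allele a knockin, and the labels name no promoter, Cre line or sex. The labels do not say whether the 5 samples of a group came from separate mice, so p-values reflect only how far these samples spread, which may be technical.

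The respiratory chain sits in the inner mitochondrial membrane. Complexes I and II pass electrons from NADH and succinate to ubiquinone, complex III passes them on to cytochrome c, complex IV hands them to oxygen, and complex V uses the proton gradient that results to make ATP. Most subunits are encoded in the nucleus and a smaller set in mitochondrial DNA, and neurons that fire at high rates, such as the Purkinje cells of the cerebellar cortex, depend heavily on this pathway. Several complex IV subunits exist as a broad isoform and a second isoform known mainly from muscle, lung or testis.

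Library depth ran from 38.3 M counts (M, mega) in WT-5 to 99.4 M in 82Q_M120A-1 (the number after the group is the column order). Atxn1 was at 46.4 to 62.2 CPM in WT, 54.1 to 58.6 CPM in 82Q and 50.6 to 55.8 CPM in 82Q_M120A, and Prkaca, which encodes the altered kinase subunit, at 164 to 173, 158 to 173 and 138 to 150 CPM; neither level shows whether an allele is present. The cerebellar identity of the libraries was plain from Purkinje and granule cell markers, whose summed levels were 4479 to 12483 CPM and 5312 to 6541 CPM. Each of the 10 Purkinje cell markers fell against WT both in 82Q and in 82Q_M120A, and their summed level was 10910 to 12483 CPM in WT, 4563 to 5502 CPM in 82Q and 4479 to 5808 CPM in 82Q_M120A. Choroid plexus markers varied within groups from 23.6 to 2817 CPM in sum, with WT-4, 82Q-1, 82Q-4 and 4 of the 82Q_M120A libraries at the low end. In bulk RNA, fewer cells of a type and less RNA per cell cannot be told apart. WT-5 had the highest and 82Q_M120A-4 the lowest summed level of the members, and counts are given with and without them. By the rule for single libraries given at the end, only WT-5 was flagged in that sum, and both were in the sum of complex IV.

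Promoters of members that behave differently in these data are shown first. RefSeq windows from 250 bases before to 50 bases after the start site (GRCm38.p6, the same assembly as mm10) were found for 65 of the 81 members and searched on both strands for 3 motifs of factors known to act at respiratory chain genes. These were GCGCA, any base, GCGC (nuclear respiratory factor 1, NRF1), CCGGAAG (GA-binding protein, GABP) and AAGATGG (YY1), and no match overlaps another in the windows printed here. Cox6a1 and Ndufa6 fell in all 3 comparisons, Sdha was called in none, and Cox6b1 and Cox6b2 are isoforms of a subunit of which the second fell most of all members against WT. Capitals mark motif matches, and a match on the other strand appears as its reverse complement.
Cox6a1 (chr5:115348909-115349208, minus strand): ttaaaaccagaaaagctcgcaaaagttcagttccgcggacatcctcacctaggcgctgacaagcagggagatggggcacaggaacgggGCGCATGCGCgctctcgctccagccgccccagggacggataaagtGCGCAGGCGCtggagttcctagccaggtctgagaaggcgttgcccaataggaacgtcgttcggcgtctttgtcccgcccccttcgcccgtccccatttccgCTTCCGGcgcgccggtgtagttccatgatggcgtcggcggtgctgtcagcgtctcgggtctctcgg
Ndufa6 (chr15:82354242-82354541, minus strand): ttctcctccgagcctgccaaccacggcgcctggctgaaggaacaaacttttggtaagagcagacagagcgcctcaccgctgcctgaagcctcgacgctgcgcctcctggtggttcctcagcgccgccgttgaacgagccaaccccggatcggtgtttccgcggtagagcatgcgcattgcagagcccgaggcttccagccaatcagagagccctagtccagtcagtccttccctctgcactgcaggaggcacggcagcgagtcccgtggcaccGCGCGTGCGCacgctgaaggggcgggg
Sdha (chr13:74350191-74350490, minus strand): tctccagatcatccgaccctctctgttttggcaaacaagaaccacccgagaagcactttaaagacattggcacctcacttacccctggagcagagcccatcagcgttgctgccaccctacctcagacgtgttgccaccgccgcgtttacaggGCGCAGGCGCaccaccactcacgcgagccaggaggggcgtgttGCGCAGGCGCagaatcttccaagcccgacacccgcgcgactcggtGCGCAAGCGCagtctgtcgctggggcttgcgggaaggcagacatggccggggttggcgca
Cox6b1 (chr7:30626065-30626364, minus strand): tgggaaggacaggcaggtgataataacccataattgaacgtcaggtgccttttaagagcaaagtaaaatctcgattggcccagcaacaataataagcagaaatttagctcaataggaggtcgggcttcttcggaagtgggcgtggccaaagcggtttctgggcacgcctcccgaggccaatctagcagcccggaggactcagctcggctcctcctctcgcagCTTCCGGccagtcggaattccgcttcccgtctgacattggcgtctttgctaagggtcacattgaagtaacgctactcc
Cox6b2 (chr7:4753045-4753344, minus strand): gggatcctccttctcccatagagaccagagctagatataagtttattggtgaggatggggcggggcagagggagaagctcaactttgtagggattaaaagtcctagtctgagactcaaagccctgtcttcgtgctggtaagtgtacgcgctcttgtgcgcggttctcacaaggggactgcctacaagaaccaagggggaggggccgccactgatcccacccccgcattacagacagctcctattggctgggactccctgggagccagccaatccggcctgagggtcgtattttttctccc
The Cox6a1 window held NRF1 matches that begin at -162 and -117 from the start site and a GABP match at -16. Ndufa6 held an NRF1 match at 24, Sdha NRF1 matches at -98, -55 and -10, and Cox6b1 a GABP match at -28. None of these letters was in the Cox6b2 window.

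Across the members with a window, 16 of 65 (24.6%) held the NRF1 letters, against 9.68% of 12436 tested genes with a window. The GABP letters were in 16 members (24.6%, against 16.7% of tested genes) and the YY1 letters in 10 (15.4%, against 7.78%). At least 1 of the 3 was in 36 members (55.4%), against 29.8% of tested genes. A match is a description of the letters only, and members that fell and members that did not both carried matches, as the Cox6a1 and Sdha windows show.

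Respiratory chain genes were lower in 82Q than in WT in small steps, and lower again in 82Q_M120A. A gene is called here when its Benjamini-Hochberg adjusted p in edgeR's quasi-likelihood test, over all 16808 genes, is under 0.05. In 82Q against WT 22 of 81 members (27.2%) were called lower and 0 higher, where 10.1% of all tested genes were called lower and 8.63% higher. At an unadjusted p under 0.05 there were 46 lower and 0 higher, and DESeq2 and limma-voom also called 0 higher. The members' median log2 fold change was -0.098, a change of -6.53%, against 0.013 over all tested genes. In 78 of 81 members the fold change was below 0.

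In 82Q_M120A against WT 61 of 81 members (75.3%) were called lower and 1 higher, with 17.8% of all tested genes called lower and 18.6% higher. The members' median log2 fold change was -0.19, a change of -12.1%, against 0.006 over all tested genes. In 82Q_M120A against 82Q 27 of 81 (33.3%) were called lower and 1 higher, with 8.63% and 10.3% of all tested genes, and the median was -0.079 against -0.003. This comparison shares the 82Q libraries with the comparison of 82Q and WT, and both comparisons with WT share the WT libraries.

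Read library by library, 30 members were lower in every 82Q library than in every WT library, and 0 were higher throughout (9.79% and 6.81% of tested genes). For 82Q_M120A and WT these counts were 49 and 1 (12.9% and 12.4% of tested genes), and for 82Q_M120A and 82Q they were 9 and 1 (5.5% and 6.63%).

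20 members were called lower in both comparisons with WT, as were 7.88% of tested genes. 9 were called lower in all 3 comparisons: Ndufa1, Ndufa6, Ndufb8, Ndufs3, Uqcrq, Cox6a1, Cox6b2, Cox8a and Atp5l. 0 members called in 82Q against WT were called the opposite way in 82Q_M120A against 82Q, where 2.59% of tested genes were. 17 members were called in none of the 3, among them Sdha, Sdhd, the complex III core gene Uqcrc2, Cox5b and Atp5s. The shares of all tested genes lower in all 3, or called in none, were not counted. These counts of members are a description only.

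**Figure D1:**
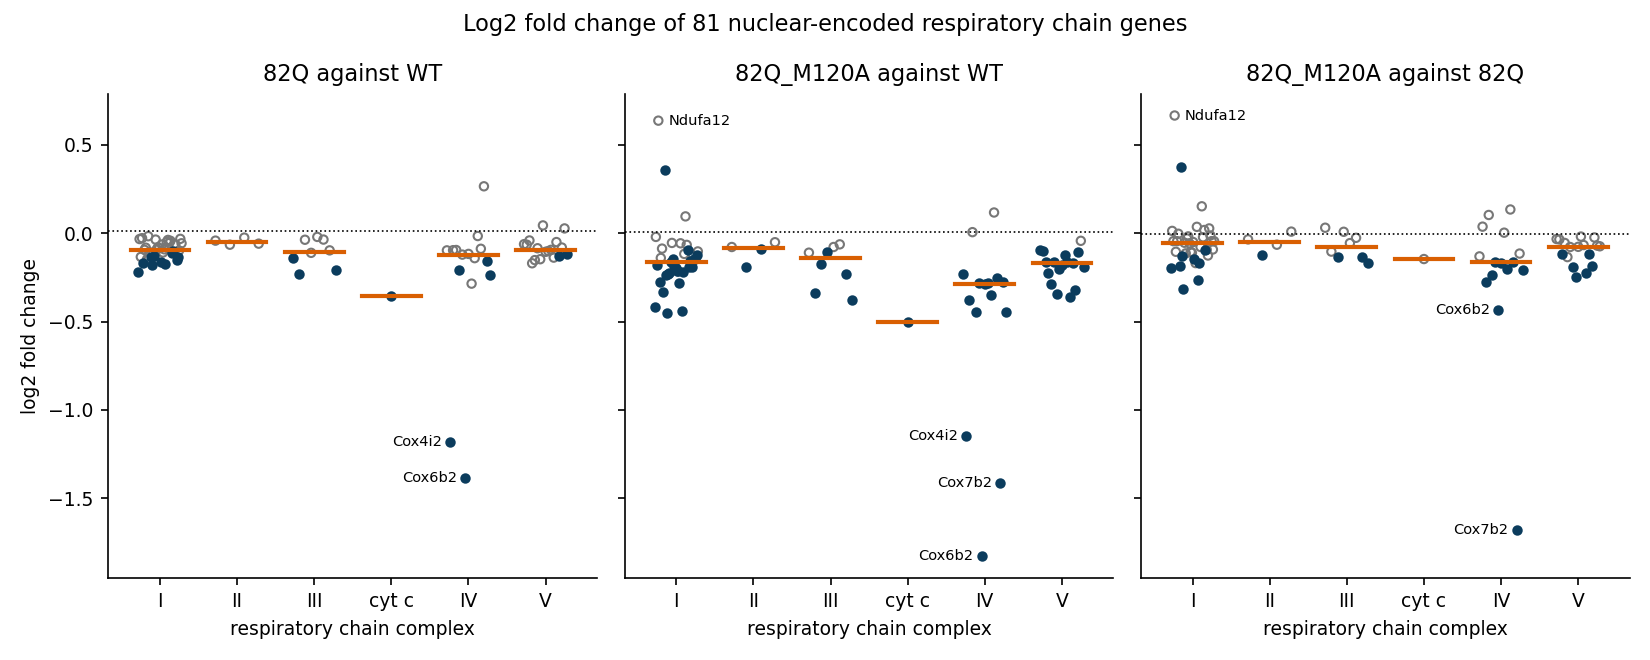
Log2 fold change of each of the 81 members (y axis) by complex (x axis) in the 3 comparisons. Filled points passed an adjusted p under 0.05, open points did not, orange bars are the median of the complex, and the dotted line is the median of all tested genes. The complex IV median fell to -0.29 in 82Q_M120A against WT, while the complex II median was -0.085. In that comparison Cox4i2, Cox6b2 and Cox7b2 lie far below the other members. Cox7b2 was at 0.264 in 82Q against WT, and Cox4i2 at 0.036 in 82Q_M120A against 82Q.

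The number of calls depended on single libraries and on scaling. Without WT-5 the 82Q against WT count was 11 lower. Without 82Q_M120A-4, which enters that test through the shared spread, it was 35, and a fit of WT and 82Q alone gave 44. In the same order these fits called 2686 of 16900, 3193 of 16882 and 3442 of 16482 tested genes, with 1222, 1467 and 1475 of them higher. The main fit called 3142 of 16808, with 1451 of them higher. Without 82Q-1 or without 82Q-2 the count in 82Q_M120A against 82Q was 17. With WT-5 and 82Q_M120A-4 both left out, 19, 51 and 22 members were lower in the 3 comparisons. Scaling by library size alone gave 7, 50 and 27; that scaling moved the share of higher genes among all calls from 46.2% to 73.0% in 82Q against WT and from 51.1% to 68.8% in 82Q_M120A against WT.

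The summed level of all 81 members was 97.6 to 105% of the WT mean in the WT libraries, 90.8 to 96.0% in 82Q and 80.6 to 92.2% in 82Q_M120A. Every 82Q and 82Q_M120A library was below every WT library, and 82Q and 82Q_M120A overlapped. The mean was 93.2 ± 1.95% in 82Q and 88.0 ± 4.53% in 82Q_M120A (SD, n = 5). Members varied most within 82Q_M120A, with a median coefficient of variation of 6.73%, against 3.58% in WT and 3.74% in 82Q.

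Complex IV was at 90.3 ± 1.63% of the WT mean in 82Q and 81.1 ± 6.65% in 82Q_M120A, with 69.6% in 82Q_M120A-4. Complex II was at 96.8 ± 2.03% and 93.6 ± 3.87%, and its groups overlapped. Complex I was at 93.1 and 88.3%, complex III at 93.8 and 89.8%, and complex V at 94.7 and 90.6%. These sums are a description, with no test.

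**Figure D2:**
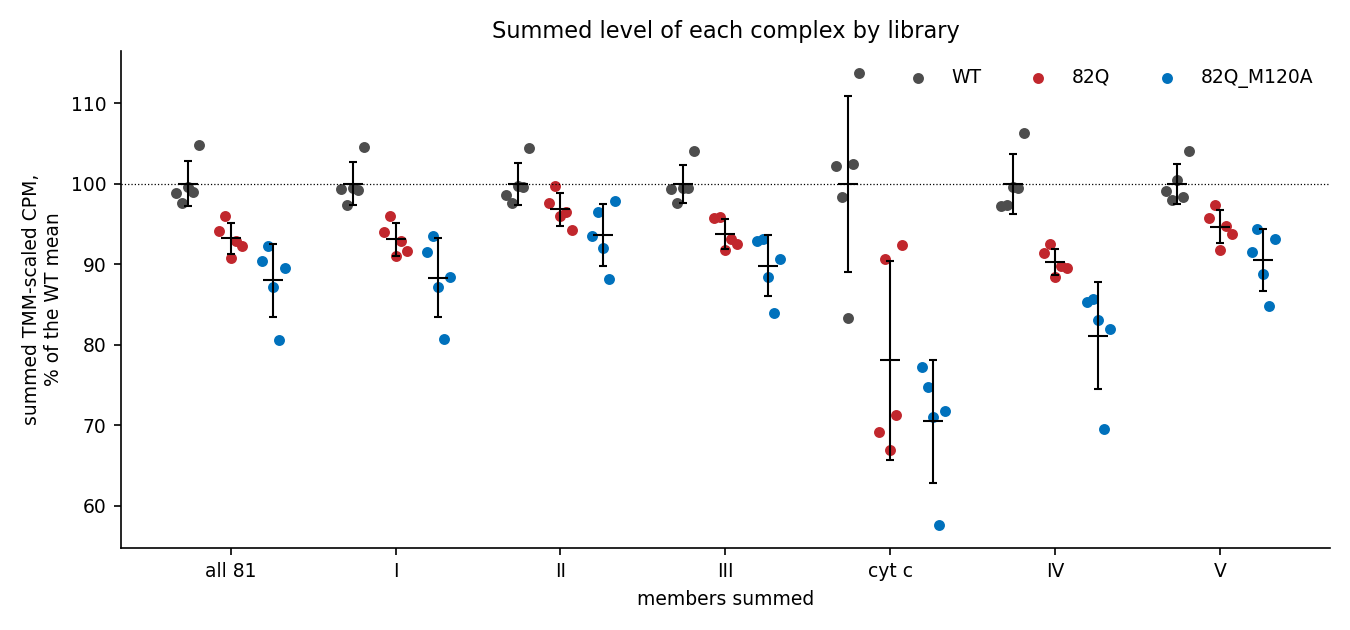
Summed TMM-scaled CPM of all 81 members and of each complex (x axis), as a percent of the WT mean (y axis, which does not start at 0), for each of the 15 libraries; the black mark and bar are the mean and SD of 5 libraries. WT-5 is the highest WT point and 82Q_M120A-4 the lowest point in every sum, and complex IV in 82Q_M120A lies at 69.6 to 85.7%.

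In complex I, the NADH dehydrogenase, 11 of 36 members fell in 82Q against WT and none rose. In 82Q_M120A against WT 24 fell and 1 rose, and against 82Q 8 fell and 1 rose. As shares, 30.6%, 66.7% and 22.2% of complex I fell, where 10.1%, 17.8% and 8.63% of all tested genes were called lower. The first count was 7 without WT-5 or without 82Q-3, 2 with scaling by library size alone and 17 in a fit of WT and 82Q alone; the third was 5 without 82Q-1 and 13 without 82Q_M120A-1. The median log2 fold changes were -0.093, -0.16 and -0.056. The members that fell are of both kinds, core subunits of the peripheral arm (such as Ndufs3, Ndufs7 and Ndufs8 in 82Q) and accessory subunits of the membrane arm and its joint with the peripheral arm (Ndufa1, Ndufb4, Ndufb8 and others).

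Ndufa6, an accessory subunit of the LYR protein family (chr15:82350140-82354322, minus strand, mm10), was at 112, 109, 113, 116 and 117 CPM in WT, 106, 109, 98.1, 105 and 98.4 CPM in 82Q, and 89.7, 83.1, 85.6, 77.9 and 77.2 CPM in 82Q_M120A. Every 82Q_M120A library was below every 82Q library, while 82Q and WT overlapped at a single pair of values near 109 CPM. The group means were 113 ± 3.46 CPM, 103 ± 4.72 CPM and 82.7 ± 5.26 CPM (SD, n = 5), and the log2 fold changes, here and below with an approximate standard error, were -0.13 ± 0.042 for 82Q and WT (adjusted p = 0.0311), -0.45 ± 0.042 for 82Q_M120A and WT (adjusted p = 1.50e-07) and -0.32 ± 0.042 for 82Q_M120A and 82Q (adjusted p = 3.42e-05). The call against WT in 82Q was lost without any of WT-1, WT-4, WT-5, 82Q-3 or 82Q-5.

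Ndufa1, a small membrane-arm subunit encoded on the X chromosome (chrX:37187588-37191163, minus strand), was at 65.6, 63.7, 68.9, 68.6 and 70.5 CPM in WT, 58.7, 60.2, 53.0, 57.8 and 59.5 CPM in 82Q, and 54.8, 52.1, 50.5, 45.7 and 49.0 CPM in 82Q_M120A. The WT libraries lay above all others, and 82Q_M120A-1 reached into the 82Q range. The log2 fold changes were -0.22 ± 0.046 (adjusted p = 0.00226), -0.42 ± 0.046 (adjusted p = 1.44e-06) and -0.20 ± 0.046 (adjusted p = 0.00599) for 82Q and WT, 82Q_M120A and WT, and 82Q_M120A and 82Q. None of these calls was lost when any single library was left out.

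Ndufs3, a core subunit of the peripheral arm, had the tightest groups of the members that fell throughout, at 121, 118, 120.1, 120.5 and 124 CPM in WT, 113, 115, 110.3, 114 and 112 CPM in 82Q, and 106, 109, 102, 104 and 108 CPM in 82Q_M120A. The 3 groups did not overlap in any pair. The change was small, -0.099 ± 0.025 for 82Q and WT (adjusted p = 0.00808), -0.19 ± 0.025 for 82Q_M120A and WT (adjusted p = 7.74e-06) and -0.094 ± 0.024 for 82Q_M120A and 82Q (adjusted p = 0.0124), on the log2 scale. The first of these was lost under scaling by library size alone (adjusted p = 0.135). An exon of Ndufs3 overlaps Kbtbd4 in the annotation, and whether the authors counted by strand is not stated in the labels or notes.

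Ndufb8, a membrane-arm subunit, was at 193, 194, 195, 190.3 and 207 CPM in WT, 181, 182, 155, 178 and 170.2 CPM in 82Q, and 139, 160.2, 159.6, 129.9 and 132 CPM in 82Q_M120A. Its log2 fold changes were -0.18 ± 0.059 (adjusted p = 0.0461), -0.44 ± 0.059 (adjusted p = 1.70e-05) and -0.27 ± 0.059 (adjusted p = 0.0044) in the same order of comparisons. The WT libraries lay above all the others, but the 82Q call was close to the threshold and was lost in 10 of the 15 fits that left out a single library. Ndufb8 overlaps Gm20538 on its own strand in the annotation. Ndufa7, another accessory subunit, fell in both comparisons with WT (-0.18 and -0.23, adjusted p = 0.00733 and 4.26e-04) and was at -0.055 in 82Q_M120A against 82Q (adjusted p = 0.422).

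Ndufa4l2 was the only member called higher in any comparison. It encodes a hypoxia-inducible relative of NDUFA4 (chr10:127514967-127517154, plus strand) and lay at a low level, 1.8004, 1.61, 1.29, 1.37 and 1.79 CPM in WT, 1.32, 1.58, 1.63, 1.60 and 1.58 CPM in 82Q, and 1.88, 2.14, 1.83, 2.18 and 1.9994 CPM in 82Q_M120A. Every 82Q_M120A library was above every library of the other groups. The log2 fold change was 0.36 ± 0.11 against WT (adjusted p = 0.0169) and 0.37 ± 0.11 against 82Q (adjusted p = 0.0223), and -0.018 ± 0.11 in 82Q against WT (adjusted p = 0.939). The first was lost without WT-3 (adjusted p = 0.0553), and the second without 82Q-1 (0.058) or without 82Q_M120A-4 (0.0507). Ndufa4l2 overlaps exons of Shmt2 in the annotation. Of 8 vascular markers, 4 rose in 82Q_M120A against WT and 2 against 82Q, and their part in this result was not tested.

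Its broad relative Ndufa4 was 733 CPM per kilobase of transcript, against 1.83 for Ndufa4l2, in the mean of all libraries. Ndufa4 went the other way, from 369 ± 13.5 CPM in WT to 333 ± 13.4 CPM in 82Q and 293 ± 31.5 CPM in 82Q_M120A. It fell in 82Q_M120A against WT (-0.33 ± 0.058, adjusted p = 2.40e-04) and against 82Q (-0.18 ± 0.058, adjusted p = 0.0349), and was not called in 82Q against WT (-0.15 ± 0.058, adjusted p = 0.0879). The call against 82Q was lost in 7 of the 15 fits that left out a library.

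Ndufa12, an accessory subunit of the peripheral arm, spread more than any other member of complex I. It was at 21.2, 20.1, 31.2, 23.2 and 24.1 CPM in WT, 19.7, 27.7, 31.9, 18.9 and 19.2 CPM in 82Q, and 39.7, 55.3, 22.6, 16.7 and 51.7 CPM in 82Q_M120A. 3 of the 82Q_M120A libraries lay above all others and the remaining 2 within or below the WT range. The mean was 37.2 ± 17.2 CPM in 82Q_M120A and 24.0 ± 4.35 CPM in WT, and the log2 fold change of 0.64 ± 0.31 was not called (adjusted p = 0.127).

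Complex II, succinate dehydrogenase, is shared between the respiratory chain and the citric acid cycle and had the median log2 fold changes nearest 0 of all complexes, at -0.051 in 82Q and -0.085 in 82Q_M120A against WT, and -0.051 between the mutant groups. Of its 4 genes 0, 2 and 1 fell in 82Q against WT, 82Q_M120A against WT and 82Q_M120A against 82Q, and 0 rose. Of all tested genes 10.1%, 17.8% and 8.63% were called lower. In a set of 4 genes, a count of 0 cannot be told apart from a share of 10.1%. Sdhb, the iron-sulfur subunit, was at 152, 150.2, 149, 155 and 163 CPM in WT, 149.7, 152, 141, 146 and 146 CPM in 82Q, and 136, 145, 135, 124 and 133 CPM in 82Q_M120A. Its WT libraries lay above all 82Q_M120A libraries and overlapped 82Q. Sdhb fell in 82Q_M120A against WT (-0.19 ± 0.037, adjusted p = 5.87e-04) and against 82Q (-0.13 ± 0.037, adjusted p = 0.0237); the second call was lost without 82Q-1, 82Q-2 or 82Q_M120A-4.

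Sdhc, a membrane anchor, fell in 82Q_M120A against WT (-0.092 ± 0.029, adjusted p = 0.0211), with overlapping groups and a call that was lost without WT-5, 82Q_M120A-3 or 82Q_M120A-4. Sdha, the flavoprotein that oxidises succinate, was at 537 ± 12.4 CPM in WT, 521 ± 11.1 CPM in 82Q and 509 ± 24.9 CPM in 82Q_M120A. Its log2 fold changes were -0.043 ± 0.036, -0.079 ± 0.036 and -0.036 ± 0.036, with adjusted p = 0.465, 0.0978 and 0.535; DESeq2 called the second (0.0367). Sdhd, the other anchor, was at -0.060 ± 0.040, -0.052 ± 0.040 and 0.008 ± 0.040 (adjusted p = 0.345, 0.334 and 0.926).

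In complex III, cytochrome c reductase, 3 of 8 members fell in 82Q against WT and 5 in 82Q_M120A against WT, and 3 were lower in 82Q_M120A than in 82Q (37.5%, 62.5% and 37.5%, against the same shares of all tested genes). The last count was 1 without 82Q_M120A-3, without 82Q_M120A-4 or in a fit of those 2 groups alone. The small subunits Uqcrq, Uqcr11 and Uqcr10 were the 3 in 82Q. Uqcrq (chr11:53427922-53430831, minus strand), which lies next to cytochrome b in the complex, was at 111, 112, 115, 114 and 119.7 CPM in WT, 105, 102, 89.1, 98.6 and 99.9 CPM in 82Q, and 91.5, 94.6, 87.8, 80.2 and 85.8 CPM in 82Q_M120A. The WT libraries lay above all others, and 82Q and 82Q_M120A overlapped because of 82Q-3. The log2 fold changes were -0.21 ± 0.045 (adjusted p = 0.00274), -0.38 ± 0.045 (adjusted p = 3.66e-06) and -0.17 ± 0.045 (adjusted p = 0.0148), and all 3 calls held when any single library was left out.

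Uqcr11 was at 82.8, 82.7, 86.0, 85.5 and 87.9 CPM in WT, 74.7, 76.0, 64.6, 71.1 and 74.7 CPM in 82Q, and 74.9, 69.9, 68.7, 57.3 and 64.8 CPM in 82Q_M120A. It fell in both comparisons with WT (-0.23 ± 0.058 and -0.34 ± 0.058, adjusted p = 0.00827 and 2.01e-04), with every WT library above every other library. Between 82Q_M120A and 82Q it was at -0.10 ± 0.058 (adjusted p = 0.227). Uqcr10 fell in 82Q against WT (-0.14 ± 0.045, adjusted p = 0.0352) and was at -0.11 ± 0.045 in 82Q_M120A against WT (adjusted p = 0.0605); its call was lost in 7 of the 15 fits without a library, DESeq2 called the second (adjusted p = 0.0493), and between 82Q_M120A and 82Q it was at 0.030 (adjusted p = 0.698). Uqcrb and Uqcrh fell in 82Q_M120A against WT (-0.17 and -0.23, adjusted p = 0.00548 and 2.18e-04) and were at -0.038 and -0.098 in 82Q against WT (adjusted p = 0.623 and 0.106). Their calls in 82Q_M120A against 82Q (-0.14 and -0.14, adjusted p = 0.0412 and 0.0265) were lost in 7 and 3 of the 15 fits without a library. The core gene Uqcrc1 was at -0.11 in 82Q against WT (adjusted p = 0.0504), -0.11 in 82Q_M120A against WT (adjusted p = 0.04) and 0.007 in 82Q_M120A against 82Q (adjusted p = 0.931), so that its folds against WT were nearly equal on either side of the threshold. Uqcrfs1, the Rieske iron-sulfur protein, and the core gene Uqcrc2 were called in none, at -0.064 and -0.079 in 82Q_M120A against WT.

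Cycs encodes cytochrome c, the mobile carrier between complexes III and IV that is also released in apoptosis (chr6:50562563-50566538, minus strand). It was at 238, 229.5, 194, 239 and 265.4 CPM in WT, 161, 212, 156, 166 and 216 CPM in 82Q, and 180.1, 175, 166, 134 and 167 CPM in 82Q_M120A. 82Q-2 and 82Q-5 lay above WT-3, so WT and 82Q overlapped, while every 82Q_M120A library was below every WT library. The log2 fold changes were -0.36 ± 0.11 for 82Q and WT (adjusted p = 0.037), -0.50 ± 0.11 for 82Q_M120A and WT (adjusted p = 0.00264) and -0.15 ± 0.11 for 82Q_M120A and 82Q (adjusted p = 0.398). Against WT it fell by 21.9% in 82Q and fell by 29.5% in 82Q_M120A. The 82Q call was lost in 8 of the 15 fits that left out a library.

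**Figure D3:**
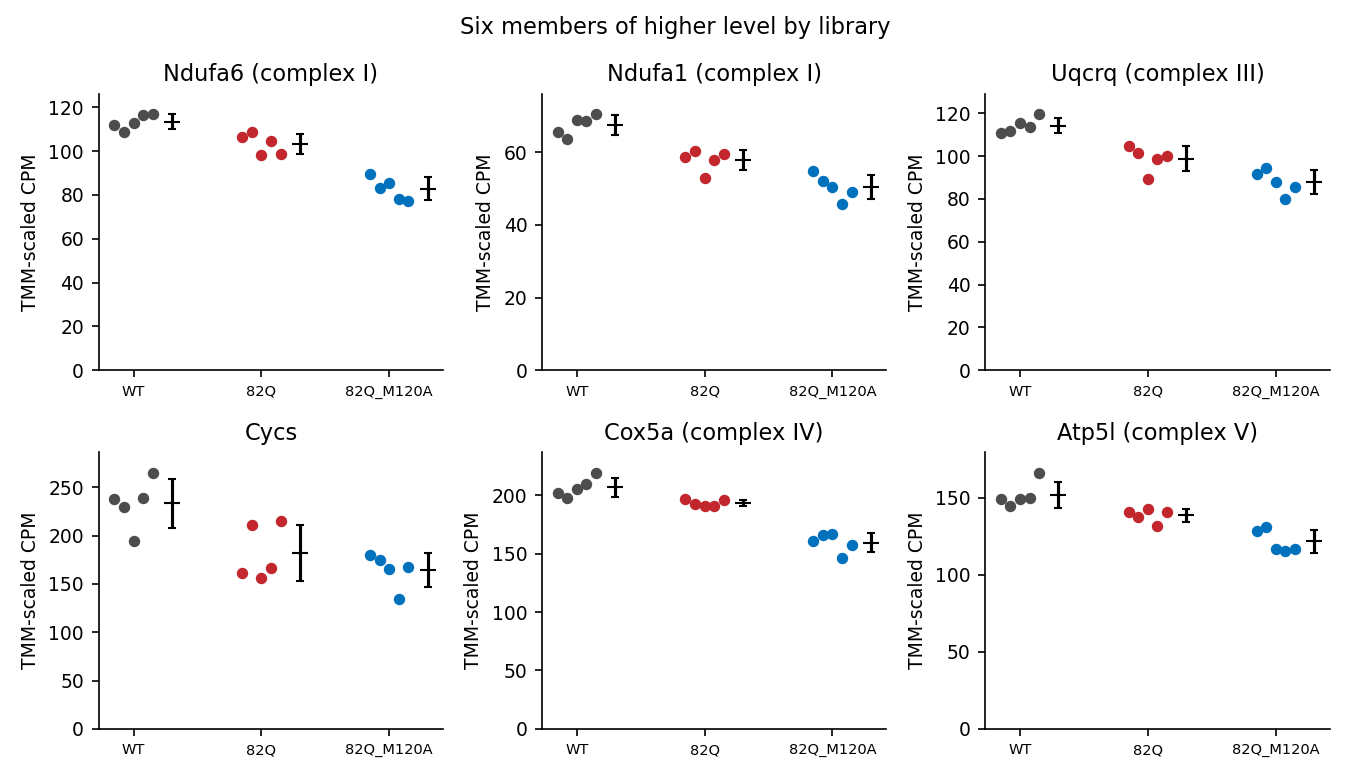
TMM-scaled CPM (y axis, from 0) of Ndufa6, Ndufa1, Uqcrq, Cycs, Cox5a and Atp5l in each library, by group (x axis); the mark and bar beside the points are the mean and SD of 5 libraries. The group means go down from WT to 82Q to 82Q_M120A, with Uqcrq at 114, 98.8 and 88.0 CPM; the Cox5a difference between WT and 82Q (adjusted p = 0.0664) and the Cycs difference between 82Q and 82Q_M120A (adjusted p = 0.398) were not called.

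Complex IV, cytochrome c oxidase, had the lowest medians of the complexes with more than 1 member: -0.12 for 82Q and WT, -0.29 for 82Q_M120A and WT, and -0.17 for 82Q_M120A and 82Q. Of its 15 members 5 fell in the first comparison, 13 in the second and 9 in the third, and none rose. These are 33.3%, 86.7% and 60.0% of complex IV, against 10.1%, 17.8% and 8.63% of all tested genes. The first count was 2 without WT-5, 11 without 82Q_M120A-4, 8 with DESeq2, 3 with scaling by library size alone and 13 in a fit of WT and 82Q alone. The 5 in 82Q were the broad subunits Cox6a1, Cox7c and Cox8a and the low-level isoforms Cox4i2 and Cox6b2.

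Cox5a, a subunit on the matrix side of the complex (chr9:57521274-57532426, plus strand), was at 202, 198, 205, 209.6 and 219 CPM in WT, 197, 193, 191, 190.5 and 196 CPM in 82Q, and 161, 166, 167, 146 and 157 CPM in 82Q_M120A. All 3 groups were apart, with the narrowest range in 82Q. It was not called in 82Q against WT (-0.097 ± 0.035, adjusted p = 0.0664, with 0.0422 in DESeq2) and fell in 82Q_M120A against WT (-0.38 ± 0.035, adjusted p = 1.94e-07) and against 82Q (-0.28 ± 0.035, adjusted p = 2.42e-05). Cox5a has a near-identical copy, Gm11633, and overlaps Gm26631 on the other strand, so its count is uncertain to that degree. Cox5b, the other matrix-side subunit, was called in none, at 174 ± 7.55 CPM, 163 ± 2.81 CPM and 174 ± 12.7 CPM in WT, 82Q and 82Q_M120A.

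Cox6a1, the broad form of subunit VIa (chr5:115345642-115348981, minus strand), was at 404, 409, 410.1, 424 and 449 CPM in WT, 366, 376, 336, 371 and 364 CPM in 82Q, and 303, 308, 342, 254 and 329 CPM in 82Q_M120A. WT lay above all other libraries, and 82Q-3 fell within the 82Q_M120A range. The log2 fold changes were -0.21 ± 0.061 (adjusted p = 0.023), -0.45 ± 0.061 (adjusted p = 1.83e-05) and -0.24 ± 0.061 (adjusted p = 0.0109). The 82Q call was lost without WT-5 (adjusted p = 0.0667) and without 82Q-3 (0.0667). Cox6a2, the heart and muscle form, was under the member minimum, at 0.037 to 0.189 CPM in WT, 0.127 to 0.391 CPM in 82Q and 0.201 to 2.32 CPM in 82Q_M120A, where a single library held 222 of the group's 434 counts.

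Cox8a, the broad form of subunit VIII, was at 440.0, 454, 467, 462 and 495 CPM in WT, 398, 399, 377, 389.9 and 400.5 CPM in 82Q, and 364, 383, 348, 271 and 334 CPM in 82Q_M120A. WT was above all other libraries, and 82Q_M120A-2 alone reached into the 82Q range. It fell by 15.3% in 82Q and fell by 26.6% in 82Q_M120A against WT (-0.24 ± 0.066 and -0.45 ± 0.066, adjusted p = 0.0169 and 4.70e-05). In 82Q_M120A against 82Q the change was -0.21 ± 0.066 (adjusted p = 0.0365). The 82Q call was lost without WT-5 (adjusted p = 0.0512), and the call between 82Q_M120A and 82Q in 6 of the 15 fits without a library. Cox8b and Cox8c were under the member minimum.

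Cox6b2 fell most of all 81 members in both comparisons with WT. It encodes an isoform of subunit VIb known from testis (chr7:4751792-4753094, minus strand) and was at 10.7, 9.42, 9.70, 9.39 and 10.3 CPM in WT, 3.11, 5.02, 3.27, 3.32 and 4.23 CPM in 82Q, and 3.19, 2.78, 2.61, 2.82 and 2.58 CPM in 82Q_M120A. Every WT library was above every other library, and 82Q-1 lay within the 82Q_M120A range. The log2 fold changes were -1.39 ± 0.11 for 82Q and WT (adjusted p = 4.11e-08), -1.82 ± 0.11 for 82Q_M120A and WT (adjusted p = 1.10e-09) and -0.44 ± 0.11 for 82Q_M120A and 82Q (adjusted p = 0.0119), and no call was lost without any single library. In percent it fell by 61.7% in 82Q and fell by 71.8% in 82Q_M120A, both against WT. The median log2 fold change of the 10 Purkinje cell markers was -1.09 and -0.95 in the comparisons with WT and 0.022 between 82Q_M120A and 82Q, and their part in this result was not tested.

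Cox6b1, the broad form, was 334 CPM per kilobase of transcript, against 9.95 for Cox6b2. It was not called in 82Q against WT (-0.12 ± 0.051, adjusted p = 0.111) and fell in 82Q_M120A against WT (-0.28 ± 0.051, adjusted p = 3.20e-04) and against 82Q (-0.16 ± 0.051, adjusted p = 0.0348). The last call was lost in 6 of the 15 fits without a library.

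Cox4i2 encodes the lung-type isoform of subunit IV, known to respond to oxygen (chr2:152754173-152765037, plus strand). It was at 3.80, 3.67, 3.31, 3.54 and 5.43 CPM in WT, 1.4992, 2.04, 1.90, 1.79 and 1.40 CPM in 82Q, and 1.58, 1.74, 1.60, 1.79 and 2.15 CPM in 82Q_M120A. All WT libraries were above all others, with WT-5 apart at the top, and the 2 groups with Atxn1[82Q] overlapped. It fell in 82Q against WT (-1.18 ± 0.14, adjusted p = 5.70e-06) and in 82Q_M120A against WT (-1.15 ± 0.14, adjusted p = 4.34e-06), and both calls held without WT-5 and without every other library. Between 82Q_M120A and 82Q the difference was 0.036 ± 0.14 (adjusted p = 0.896). The summed level of 8 vascular markers was 282 to 324 CPM in WT, 296 to 320.3 CPM in 82Q and 349 to 375 CPM in 82Q_M120A, and the Purkinje cell markers had median log2 fold changes of -1.09 and -0.95 against WT and 0.022 between 82Q_M120A and 82Q. The part of either cell type in this result was not tested.

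Cox4i1, the broad isoform, was 699 CPM per kilobase against 3.41 for Cox4i2. It went from 560.2 ± 16.8 CPM in WT to 524 ± 13.3 CPM in 82Q and 478 ± 39.3 CPM in 82Q_M120A. It fell in 82Q_M120A against WT (-0.23 ± 0.048, adjusted p = 0.00125) and was not called in 82Q (-0.098 ± 0.048, adjusted p = 0.183). Its exons overlap Emc8 in the annotation.

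Cox7b2, a testis isoform of subunit VIIb (chr5:71442824-71548205, minus strand), was low in 82Q_M120A alone. It was at 2.28, 2.21, 1.92, 2.06 and 2.59 CPM in WT, 2.59, 3.09, 3.42, 2.65 and 1.42 CPM in 82Q, and 0.688, 1.51, 0.878, 0.358 and 0.708 CPM in 82Q_M120A. Every 82Q_M120A library was below every WT library, and 82Q-5 overlapped with 82Q_M120A-2. The log2 fold change was -1.41 ± 0.29 against WT (adjusted p = 0.00113), -1.68 ± 0.28 against 82Q (adjusted p = 6.10e-04), and 0.26 ± 0.27 in 82Q against WT (adjusted p = 0.556). It rests on 737, 1110 and 361 counts in the 3 groups. The broad isoform Cox7b, on the X chromosome, fell in 82Q_M120A against WT (-0.25 ± 0.039, adjusted p = 5.66e-05) and against 82Q (-0.17 ± 0.039, adjusted p = 0.00598).

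The subunit VIIa genes differed among themselves. Cox7a2, the broad form, fell in 82Q_M120A against WT (-0.35 ± 0.051, adjusted p = 3.86e-05) and against 82Q (-0.21 ± 0.051, adjusted p = 0.00872). In 82Q against WT it was at -0.14 ± 0.051 (adjusted p = 0.0607, with 0.0409 in DESeq2), and every 82Q library was below every WT library. Cox7a1, the heart and muscle form, was at 4.03 ± 0.453 CPM in WT, 3.29 ± 0.208 CPM in 82Q and 3.2958 ± 0.459 CPM in 82Q_M120A. Its call in 82Q_M120A against WT (-0.28 ± 0.099, adjusted p = 0.0328) was lost in 6 of the 15 fits without a library. In 82Q against WT it was at -0.29 ± 0.0996 (adjusted p = 0.0542, with 0.0415 in DESeq2). It was called there in 4 of those fits. Cox7a2l, which helps to join complexes III and IV into supercomplexes, was called in none, at 0.12 in 82Q_M120A against WT (adjusted p = 0.0871).

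**Figure D4:**
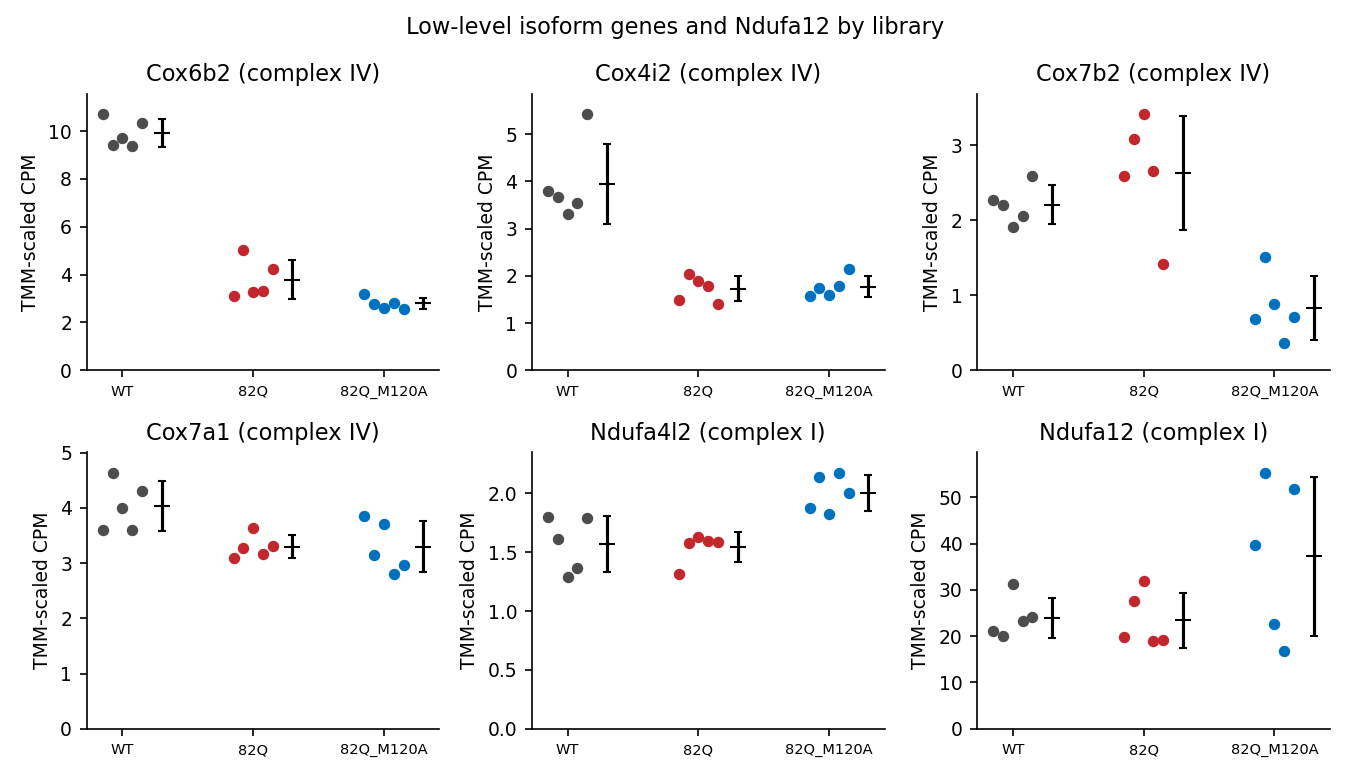
TMM-scaled CPM (y axis, from 0) of 5 isoform genes of low level and of Ndufa12 in each library, by group (x axis); the mark and bar are the mean and SD of 5 libraries. Cox6b2 and Cox4i2 are lower in both groups with Atxn1[82Q], Cox7b2 is lower in 82Q_M120A alone, Ndufa4l2 is higher in 82Q_M120A, and Ndufa12 spreads from 16.7 to 55.3 CPM within 82Q_M120A.

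In complex V, ATP synthase, 2 of 17 members fell in 82Q against WT, Atp5l and Atp5sl, and 16 fell in 82Q_M120A against WT, all but Atp5s. In 82Q_M120A against 82Q 6 fell. These are 11.8%, 94.1% and 35.3% of complex V, and the first is near the 10.1% of all tested genes called lower, where the others stand beside 17.8% and 8.63%. The first count was 0 without WT-5 or with scaling by library size alone, 1 without any one of WT-1, WT-3, WT-4, 82Q-4 or 82Q-5, 4 without 82Q-2, 7 without 82Q_M120A-4, 5 with RLE factors or DESeq2 and 10 in a fit of WT and 82Q alone. The Atp5sl call (-0.12, adjusted p = 0.0196) was lost without WT-5 (0.0505) and with scaling by library size alone (0.151). The third count was 3 without 82Q-1, 82Q-2 or 82Q_M120A-5. Atp5b and Atp5a1, genes of the catalytic part, were the most abundant members, at 1852 ± 41.4 CPM and 1221 ± 26.0 CPM in WT. They changed little, by -0.10 ± 0.035 and -0.096 ± 0.036 in 82Q_M120A against WT (adjusted p = 0.0285 and 0.0457).

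Atp5l, subunit g of the membrane part, where ATP synthase dimers form (chr9:44912557-44920742, minus strand), was at 149, 145, 149, 149.7 and 166 CPM in WT, 140.3, 137, 142, 132 and 140.5 CPM in 82Q, and 128, 131, 117, 115 and 116 CPM in 82Q_M120A. The 3 groups did not overlap, and WT-5 stood above the other WT libraries. The log2 fold changes were -0.13 ± 0.043 (adjusted p = 0.0382), -0.32 ± 0.043 (adjusted p = 1.25e-05) and -0.19 ± 0.043 (adjusted p = 0.00449). The 82Q call was lost in 7 of the 15 fits that left out a library. Atp5l has 13 near-identical copies elsewhere and overlaps Gm30934 on the other strand, so its count is uncertain to that degree. Atp5j2, subunit f of the same part, was not called in 82Q (-0.14 ± 0.058, adjusted p = 0.108) and fell in 82Q_M120A against WT (-0.36 ± 0.058, adjusted p = 1.04e-04) and against 82Q (-0.22 ± 0.058, adjusted p = 0.0116).

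Atp5g1, Atp5g2 and Atp5g3 encode the same mature subunit c, the ring that turns with the proton flow, behind different import sequences. None was called in 82Q against WT (adjusted p = 0.0889, 0.646 and 0.0526), but Atp5g3 was with DESeq2 (0.0193) and limma-voom (0.049) and in 4 of the 15 fits without a library, and Atp5g1 in 2 of those fits. All 3 fell in 82Q_M120A against WT (log2 -0.34 ± 0.058, -0.20 ± 0.055 and -0.18 ± 0.037; adjusted p = 1.97e-04, 0.0083 and 7.55e-04). Atp5g2 was at 94.3, 94.2, 90.9, 94.7 and 97.5 CPM in WT, 93.2, 99.8, 98.3, 97.4 and 97.1 CPM in 82Q, and 83.0, 93.1, 86.6, 69.3 and 77.9 CPM in 82Q_M120A, so that WT and 82Q overlapped and the fall lay between 82Q and 82Q_M120A (-0.25 ± 0.055, adjusted p = 0.00452). Atp5g3 had the highest level per length of the 3, 439.8 CPM per kilobase, against 207 for Atp5g2 and 181 for Atp5g1.

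Transcript length, which the symbol rule did not use, went along with the size of the change. The members' annotated transcripts had a median of 745 bases, against 2705 bases over all tested genes with a length. In 82Q_M120A against WT the median log2 fold change was -0.28 in 35 members of up to 700 bases, -0.19 in 18 members of 700 to 1000 bases, -0.13 in 21 of 1000 to 2000 bases and -0.092 in 7 longer ones. In 82Q against WT the medians were -0.13, -0.10, -0.065 and -0.044, and in 82Q_M120A against 82Q -0.14, -0.057, -0.057 and -0.036.

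In the other tested genes the medians over the same length classes, shortest first, were -0.008, 0.005, 0.004 and 0.008 in 82Q_M120A against WT. In 82Q_M120A against 82Q they were -0.033, 0.001, 0.007 and -0.004. In 82Q against WT they were 0.025 in the shortest class and 0.018 in the longest. Of the 815 others of up to 700 bases, 16.9% were called lower in 82Q_M120A against WT, against 29 of 35 members in that class. With a smooth trend of length removed from all genes, 27, 63 and 30 members were lower in the 3 comparisons. The members' medians were then -0.082, -0.165 and -0.083, where the main fit gave -0.098, -0.186 and -0.079. The part of length in the members' changes was not tested.

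**Figure D5:**
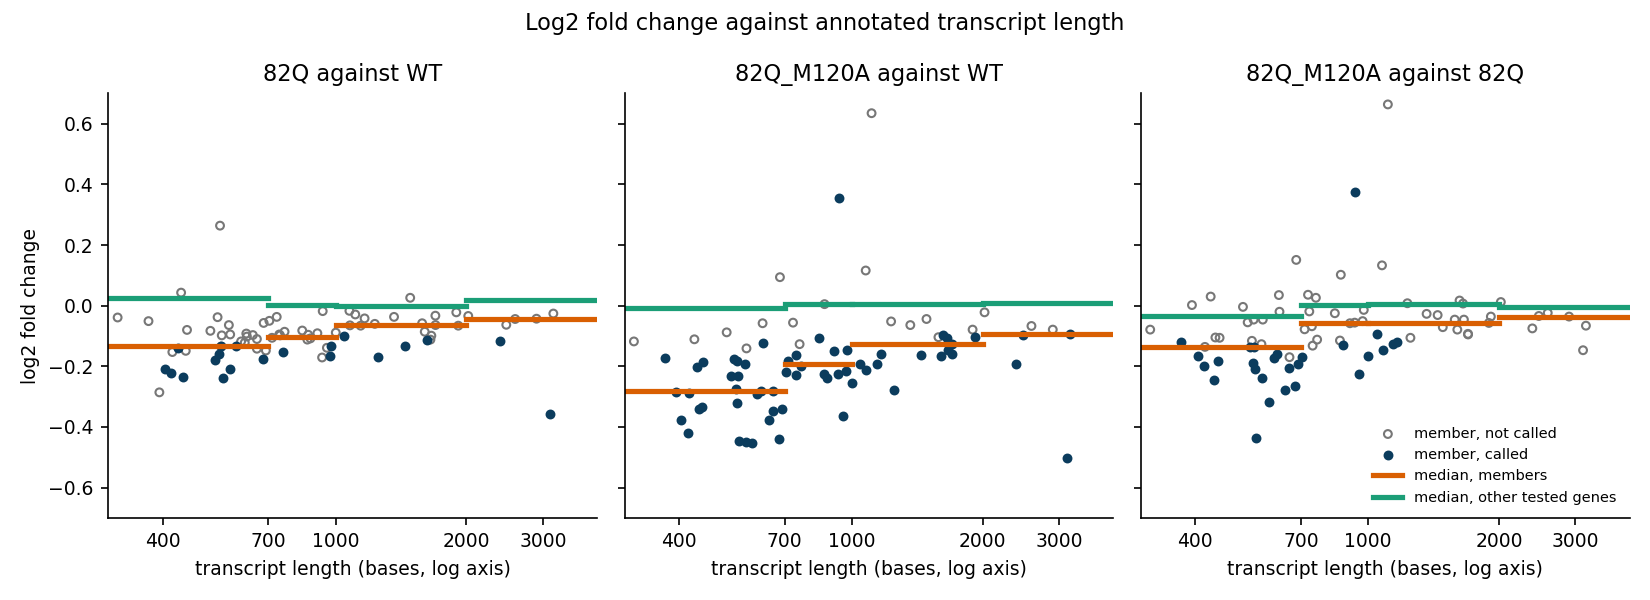
Log2 fold change of the members (y axis, from -0.7 to 0.7) against annotated transcript length (x axis, log scale) in the 3 comparisons; filled points are called members, and bars are medians within length classes for members and for other tested genes. Cox4i2, Cox6b2 and Cox7b2 lie below the axis where their change is larger than 0.7. Members of up to 700 bases have the lowest medians, down to -0.28 in 82Q_M120A against WT, where other genes of that length are at -0.008.

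Shared sequence could have affected some counts. 20 members have a near-identical copy elsewhere (at least 90% identity over at least 50% of the transcript), and of the 61 without one 17, 43 and 17 were called lower in the 3 comparisons. Among the members described above, Atp5l has 13 such copies, Atp5g1, Atp5g2 and Uqcrb have 4 each, and Ndufa4 has 2. Cox5a, Cox6a1, Ndufs3 and Ndufa7 have 1 each. 28 members overlap exons of another gene, 25 of them on the other strand. Of the 53 without such an overlap 16, 38 and 18 were called lower (30.2%, 71.7% and 34.0%) and 0 higher. Of all tested genes 8.63%, 18.6% and 10.3% were called higher. Ndufs5, a complex I subunit at 3 counts in all libraries, is in effect not measured in this table, and none of the mitochondrially encoded subunits has a row.

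Genes of the same pathway outside the rule were counted from lists, to be read against the 10.1%, 17.8% and 8.63% of all tested genes called lower and the 8.63%, 18.6% and 10.3% called higher. Of 5 subunit genes that the symbols miss (Ndufab1, Cyc1, Usmg5, Atpif1 and 2010107E04Rik), 2 fell in 82Q and 5 in 82Q_M120A against WT, and 2 were lower in 82Q_M120A than in 82Q. Cyc1, the cytochrome c1 of complex III, fell in 82Q_M120A against WT by -0.20 ± 0.034 on the log2 scale (adjusted p = 0.000173). It also fell in 82Q against WT (-0.13 ± 0.034, adjusted p = 0.011) and was at -0.069 in 82Q_M120A against 82Q (adjusted p = 0.174). Of 45 assembly factor genes 7, 13 and 7 fell (15.6%, 28.9% and 15.6%) and 0, 6 and 4 rose. Of 16 pyruvate dehydrogenase and citric acid cycle genes 1, 8 and 0 fell (6.25%, 50% and 0%) and 1, 1 and 0 rose. Their medians in 82Q_M120A against WT were -0.050 and -0.068, against -0.19 for the members.

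The 2 ribosomal lists served as other large families of mostly short transcripts. Of 77 mitochondrial ribosome genes 9, 24 and 5 fell (11.7%, 31.2% and 6.49%) and 1, 6 and 6 rose, with medians of -0.061, -0.055 and -0.008. Of 81 cytosolic ribosome genes 3, 20 and 7 fell (3.70%, 24.7% and 8.64%) and 1, 9 and 8 rose, with medians of -0.012, -0.033 and -0.035. Both lists were near or below the share of all tested genes called lower in 82Q against WT and in 82Q_M120A against 82Q. No test of the difference between these lists and the members was made.

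Of 14 regulators of mitochondrial genes, 0, 2 and 1 fell (0%, 14.3% and 7.14%) and 2, 1 and 0 rose (14.3%, 7.14% and 0%). Of all tested genes 10.1%, 17.8% and 8.63% were called lower, and 8.63%, 18.6% and 10.3% higher. Ppargc1a, the coactivator PGC-1alpha that drives mitochondrial gene expression, was at 90.6 ± 6.53 CPM in WT, 94.9 ± 2.26 CPM in 82Q and 82.4 ± 6.03 CPM in 82Q_M120A (SD, n = 5). It fell in 82Q_M120A against WT (-0.14 ± 0.05, adjusted p = 0.0433) and against 82Q (-0.20 ± 0.05, adjusted p = 0.00837). Esrra, a nuclear receptor that works with it, fell in 82Q_M120A against WT (-0.19 ± 0.055, adjusted p = 0.0105). Esrra was at -0.15 ± 0.055 in 82Q against WT (adjusted p = 0.0597) and at -0.039 in 82Q_M120A against 82Q (adjusted p = 0.672). Tfam, which packages and transcribes mitochondrial DNA, rose in 82Q (0.11 ± 0.03, adjusted p = 0.0144) and in 82Q_M120A (0.11 ± 0.03, adjusted p = 0.00946) against WT. Nrf1 was at 0.047 and 0.054 (adjusted p = 0.455 and 0.302) and Gabpa at 0.11 and 0.041 (adjusted p = 0.227 and 0.61) in the comparisons with WT. Gabpb2 rose in 82Q against WT (0.13 ± 0.043, adjusted p = 0.0455) and was at 0.088 in 82Q_M120A against WT (adjusted p = 0.118).

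Markers of other cell types moved with the groups. Oligodendrocyte markers rose in 6 of 8 genes in 82Q and 8 of 8 in 82Q_M120A against WT, with summed levels of 4972 to 5996 CPM in WT, 6110 to 7402 CPM in 82Q and 6886 to 7510 CPM in 82Q_M120A. Microglia markers rose in 8 of 8 and 6 of 8, with 128 to 141 CPM in WT, 202 to 214 CPM in 82Q and 190 to 228 CPM in 82Q_M120A, and 1 fell in 82Q_M120A. Granule cell markers rose in 1 of 8 and 5 of 8, and 1 fell in 82Q_M120A. Astrocyte and Bergmann glia markers fell in 2 of 8 and rose in 3 of 8 in both. With the choroid plexus score as a covariate, 20, 53 and 17 members were lower in the 3 comparisons. The part of the other cell types in the members' changes was not tested.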

How the data were processed

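Cerebellar total RNA of 15 samples in 3 groups of 5 was sequenced on an Illumina HiSeq2500 after TruSeq library preparation, per the labels' protocols. The deposited table holds whole-number read counts per gene symbol, 24420 rows by 15 columns, made by the authors. Per the submitters' processing notes, the tools were HISAT2 2.0.1, Subread with its featureCounts, CASAVA 1.8, DESeq2 1.14.1 and R 3.3.3, with genome mm10. Which annotation was used, whether strand was counted and how multi-mapping reads were treated is not given in these sources. Column names give a group and a number that no label explains, so libraries are numbered by column order within a group.

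Counts were fitted over the whole table with edgeR 4.0.16 (TMM, filterByExpr, glmQLFit with robust estimation, group as the only factor, 15 libraries, 12 residual degrees of freedom, common biological coefficient of variation 0.105) in R 4.3.3, with two-sided quasi-likelihood tests and Benjamini-Hochberg adjustment over 16808 genes. Standard errors are approximate, the size of the log2 fold change over the root of F. The CPM values of single libraries, group means and sums are counts scaled by TMM; the member minimum of 1 CPM uses column totals. Intervals of counts cover counting error only, and the depths of 38.3 to 99.4 M (mega) counts per library limit genes near 1 CPM most. Lengths and overlaps are from GENCODE M21, promoters from RefSeq on GRCm38.p6. The YY1 motif was first searched in a longer form that fewer promoters held, among members and among all tested genes; the shorter form was adopted after those counts were seen, so its shares are a description only. The fitting step alone was checked on generated counts with known folds, and the check required edgeR to recover only the largest of these folds. It did not cover changes as small as the members' medians.

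The members, marker lists and pathway lists were chosen with earlier results of these data known. Named members are, per comparison and complex, the 3 called ones of smallest adjusted p, members called against the commoner direction, all of complex II and Cycs, the isoform sets, and the members next to the minimum; Ndufa12, Ndufb4, Ndufs7, Ndufs8, Cox5b, Cox7c, Uqcrc1, Uqcrc2, Uqcrfs1, Atp5a1, Atp5b and Atp5s were named after their values were seen. Alternatives were RLE factors, library size only, DESeq2 1.42.0, limma-voom (limma 3.58.1), no filter, a mean of at least 1 CPM, only the groups compared, an adjusted p under 0.01, a choroid plexus covariate, transcript length and GC trends (lowess span 0.3), and leaving out each library. Leaving out WT-5 and 82Q_M120A-4 together was chosen after seeing the data.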

Additional observations from a re-analysis of the deposited data

Results flagged for a closer look

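In 123 groups of 5 libraries checked (35 named genes and 6 sums in 3 groups), 10 had a highest or lowest library whose gap to its nearest neighbour was over 0.71 of the group's range; chance flags about 1 in 20 groups. WT-5, the shallowest library, accounted for 6 of the 10. It was the highest WT library in Atp5l at 166 CPM (the others 145 to 149.7 CPM), Cox4i2 at 5.43 CPM (3.31 to 3.80 CPM), Cox7a2l at 87.2 CPM and Ndufa7 at 59.8 CPM, in the summed level of all members at 15550.0 CPM (14486 to 14784) and in the summed level of complex IV at 2987 CPM (2731 to 2798).

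82Q_M120A-4 was the lowest of its group in Cox4i1 at 409.7 CPM (the others 484 to 507 CPM) and in the summed level of complex IV at 1954 CPM (2303 to 2408 CPM). 82Q-1 was the lowest 82Q library in Ndufa4l2 at 1.32 CPM (1.58 to 1.63 CPM), and 82Q-3 in Ndufa7 at 46.1 CPM (51.5 to 53.0 CPM). The cause of these values was not tested.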

How the results depend on the processing

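No paired analysis was possible because the columns carry no replicate number. The members called lower were 22, 61 and 27 in 82Q against WT, 82Q_M120A against WT and 82Q_M120A against 82Q. Leaving out each library in turn gave 11 (without WT-5) to 35 (without 82Q_M120A-4), 54 to 64, and 17 (without 82Q-1 or 82Q-2) to 35; the members called higher were 0 to 0, 0 to 3 and 0 to 3. Scaling by library size alone gave 7 lower in 82Q against WT and 3 higher in 82Q_M120A against WT, and moved the median of all genes from 0.013 to 0.063 and from 0.006 to 0.055. Fitting only the groups compared gave 44 lower in 82Q against WT, fewer libraries then setting the spread. An adjusted p under 0.01 gave 9 lower in 82Q against WT, 9 lower in 82Q_M120A against 82Q, and 0 higher in both comparisons with 82Q_M120A. The choroid plexus covariate gave 17 lower in 82Q_M120A against 82Q. In 82Q_M120A against 82Q the members called higher were 2 with DESeq2, the choroid plexus covariate, the length trend removed, the GC trend removed, or WT-5 and 82Q_M120A-4 left out; in 82Q_M120A against WT they were 2 with the length trend removed and 3 with those 2 libraries left out. The cause of these shifts was not tested. All other counts over the 81 members under these alternatives stayed within 1.5 times, while counts within a complex moved more, as given beside them. Cycs was not called in 82Q against WT under library size alone, no low-count filter or a fit of those groups alone. Without 82Q_M120A-4, Atp5g1, Atp5g3, Cox4i1, Cox5a, Cox6b1, Cox7a1, Cox7a2 and Ndufa4 were also called lower in 82Q against WT (adjusted p = 0.0119 for Cox6b1 to 0.0456 for Cox4i1). Of 35 named members in 3 comparisons, no fold change reversed its direction among called values. Counting error weighs most on members near 1 CPM, such as Cox7b2 with 361 counts over the 5 82Q_M120A libraries.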
